A study of Homo sapiens with 18 samples.

Results

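The genes of fibronectin and 8 other secreted matrix or matrix-bound proteins were followed in RNA sequencing of MDA-MB-231 cells, an established triple-negative breast cancer (TNBC) cell line, grown as 3D cultures. The members were chosen by gene symbol, with earlier results of these data known: FN1, THBS1, TNC, SPARC, FBN1, FBLN1, TGFBI, TGM2 and CRIM1, each found as 1 row of the deposited tables, so that they are 9 of 21411 genes. Cultures were seeded with 50000 cells in Matrigel at 2 mg/ml and collected after 7 days, with 3 libraries in each of 6 groups. Jag1WT cells are the parental line. Jag1KO cells had JAG1, the gene of the Notch ligand Jagged1, disrupted with Cas9. They came from several pooled clones, so that no library stands for 1 clone. Jag1KO + rescue cells are Jag1KO cells carrying Jagged1 cDNA on a pcDNA3.1 plasmid and Jag1KO + ctrl cells are Jag1KO cells carrying the empty plasmid, and both were under G418 selection. The siCtrl and siJag1 cells are Jag1WT cells that received nontargeting or Jagged1-targeting siRNA before seeding. The study asked how Jagged1 on the cancer cells bears on the extracellular matrix (ECM), and the comparisons below ask whether the mRNA of these matrix genes differed with JAG1.

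Fibronectin is a large glycoprotein that cells assemble into fibrils through integrins, and those fibrils guide the deposition of other matrix. Matricellular proteins such as thrombospondin 1 and tenascin C are secreted into the matrix and act on cells through receptors more than as structural parts of it, while fibrillins and fibulins belong to microfibrils and elastic fibres that also hold latent TGFβ and BMPs. In breast tumors much of this matrix is made by fibroblasts, but mesenchymal-like cancer cells such as MDA-MB-231 make part of it themselves. Jagged1 binds Notch receptors on neighbouring cells, after which the freed Notch domain works on DNA together with RBPJ.

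None of the members passed the test in any comparison. Of the 9, 8 had enough reads to be tested, and SPARC did not. The differences that came nearest were in FBLN1, which was lower where JAG1 was higher in both comparisons that use Jag1KO cells. TGM2 had differences of opposite sign in these comparisons, and came nearest to the threshold in the test of the difference between them. CRIM1 was lower with more JAG1 in all 3 comparisons that change JAG1, with no overlap between groups, by less than 1.5-fold. This pattern was shared by 0.247% of the 12553 genes tested in all 3, or 31 genes. CRIM1 was also lower without overlap in siCtrl than in Jag1WT, where JAG1 was not changed on purpose.

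Promoter sequences from RefSeq (GRCh38.p14) were matched by symbol for 7 of the 9 members, all but TGM2 and CRIM1. In the 250 bases before the start of each gene, 3 motifs were searched on both strands: the core bound by RBPJ, TGGGAA, the cyclic AMP response element, TGACGTCA, and the GC box bound by SP1-like factors, GGGCGG. The RBPJ core was found in TNC, FBN1 and TGFBI, that is in 3 of 7, and in 20.8% of all 35116 promoters of the same length. The cyclic AMP response element was found in FN1 and in 1.65% of all promoters. GC boxes were found in 5 of 7, all but SPARC and FBN1, and in 42.6% of all promoters. A match is a description of these letters and not a site shown to be bound, and no match says only that the letters are not in this window. The 250 bases are shown for FN1, the most abundant member, with its cyclic AMP response element, for TGFBI with its RBPJ core, and for THBS1, which holds GC boxes and no RBPJ core. Capitals mark the motifs, and overlapping GC boxes in FN1 run into each other.
FN1, chr2:215436069-215436318, minus strand: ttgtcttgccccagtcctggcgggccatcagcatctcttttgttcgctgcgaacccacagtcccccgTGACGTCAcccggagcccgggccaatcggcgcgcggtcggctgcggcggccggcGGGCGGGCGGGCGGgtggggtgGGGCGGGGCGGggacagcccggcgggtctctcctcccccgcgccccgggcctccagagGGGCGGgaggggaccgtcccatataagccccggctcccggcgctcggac
TGFBI, chr5:136028738-136028987, plus strand: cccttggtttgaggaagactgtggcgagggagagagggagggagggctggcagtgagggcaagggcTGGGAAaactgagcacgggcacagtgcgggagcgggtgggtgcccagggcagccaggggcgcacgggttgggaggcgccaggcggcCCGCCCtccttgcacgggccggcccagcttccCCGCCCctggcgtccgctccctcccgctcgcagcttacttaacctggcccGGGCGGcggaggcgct
THBS1, chr15:39580829-39581078, plus strand: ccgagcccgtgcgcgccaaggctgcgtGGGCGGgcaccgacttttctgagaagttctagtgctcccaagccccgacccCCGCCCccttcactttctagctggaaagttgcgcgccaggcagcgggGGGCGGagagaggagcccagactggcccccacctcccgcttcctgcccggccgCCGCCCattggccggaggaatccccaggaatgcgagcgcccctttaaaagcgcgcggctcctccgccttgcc

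JAG1 itself was checked first. The CPM, which are counts scaled by the authors to a common library size with the TMM method, were 433, 585 and 522 in Jag1WT and 116, 205 and 149 in Jag1KO. They were 534, 657 and 646 in Jag1KO + rescue and 110.2, 134 and 147 in Jag1KO + ctrl, and 441, 626 and 531 in siCtrl and 166, 203 and 131 in siJag1. The groups did not overlap in any of these comparisons, so each library lay on the side its label gives. Mean JAG1 mRNA in Jag1KO was 30.5% of that in Jag1WT, in Jag1KO + ctrl 21.3% of the rescue, and in siJag1 31.3% of siCtrl. The mRNA level does not show whether the Cas9 edit removed the protein, which the paper checked by DNA sequencing and Western blot. In the quasi-likelihood test of edgeR, with Benjamini-Hochberg adjustment over all genes tested, the log2 difference was 1.71 ± 0.219 (SE, adjusted p = 0.0162) for Jag1WT over Jag1KO and 2.22 ± 0.177 (adjusted p = 0.0229) for the rescue over its control. In siCtrl against siJag1 it was 1.68 ± 0.191 with an adjusted p of 0.111, and 1.69 with an adjusted p of 0.0179 in the alternative with the replicate number as a block.

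The libraries held between 10330581 and 18327890 reads counted on genes. The markers of the cell line were in place: 8 of 8 (VIM, AXL, CD44, EGFR, KRT8, KRT18, KRT19 and CAV1) were above 1 CPM in every library. Of 4 markers low in triple-negative cells, ESR1 was at 0 in 17 of 18 libraries and PGR was above 1 CPM in 1, while FOXA1 was above 1 CPM in 10 (at most 4.91) and GATA3 in all 18 (5.25 to 11.5). The fibroblast markers DCN, LUM, COL1A2, PDGFRA, THY1 and FAP were never above 0.495 CPM, PDGFRB and ACTA2 reached 1.35 and 1.17, COL1A1 lay between 2.66 and 10.0 CPM, and the 9 fibroblast markers measured summed to between 3.91 and 11.4 CPM per library. The immune marker PTPRC was never above 0.196 CPM, while CD14 lay between 1.23 and 4.99 CPM and CD68 between 88.9 and 209. The endothelial markers CDH5 and VWF were never above 0.927 CPM, while PECAM1 lay between 0.954 and 15.1 and KDR between 5.74 and 16.9. A set of 20 genes of the cell cycle and DNA replication, here called growth-state genes, differed between libraries of 1 group. Their mean log2(CPM + 1) was 4.53, 6.07 and 6.33 in Jag1KO, 6.45, 6.94 and 4.82 in Jag1KO + ctrl and 4.70, 6.77 and 4.86 in siJag1, against 4.49 to 5.60 in the libraries of Jag1WT, Jag1KO + rescue and siCtrl. Jag1KO replicate 1, Jag1KO + ctrl replicate 3 and siJag1 replicate 2 therefore stood apart from the rest of their groups, and values without them are given below where they change a call. Replicate 2 was also the highest of Jag1WT, Jag1KO + rescue and siCtrl, at 5.33, 5.44 and 5.60, and of Jag1KO + ctrl. The siRNA values below without siJag1 replicate 2 keep siCtrl replicate 2. All 20 growth-state genes had a negative log2 difference in each of the 3 comparisons that change JAG1, with medians of −1.25, −1.44 and −0.69 against medians of all genes between −0.0089 and −0.0024, and 1 of them, MCM2, was called, in Jag1WT against Jag1KO (−0.78 ± 0.128, adjusted p = 0.0442, lost in 5 of 6 fits without 1 library). The part of growth state in any difference below was not tested.

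A gene was called at an adjusted p below 0.05 together with a fold change above 1.5. In Jag1WT against Jag1KO 92 genes were called, which is 0.714% of the 12879 tested, and 0 of the 8 members tested were among them. In Jag1KO + rescue against Jag1KO + ctrl 1 gene was called, 0.00778% of 12850, and in siCtrl against siJag1 2 genes, 0.0157% of 12774, with 0 of the 8 members in either. At an unadjusted p below 0.05 there were 1134, 3954 and 489 genes in these comparisons, of which 4, 2 and 2 were members. DESeq2 called 235, 1583 and 24 genes, with 1, 0 and 0 members. In simulated counts, drawn independently for each gene with its own spread, the edgeR test found 82 of 100 genes changed 2-fold in Jag1WT against Jag1KO, 50 of 100 in the rescue and 81 of 100 in the siRNA comparison, for genes above 10 CPM. Shifts that many genes of a library share, as in the growth-state genes, were not simulated. These shares therefore do not give the power in the real libraries. There JAG1, 3.20-fold higher in siCtrl than in siJag1, was not called in the main test (adjusted p = 0.111).

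Compared per length, as CPM per kb of gene length, FN1 had the highest level of the members, and ranked 384 among 12757 genes (those that exceeded 1 CPM in 9 or more libraries). Its mean over the 18 libraries was 136 CPM per kb. TGM2 (48.0 CPM per kb), TNC (45.7), THBS1 (33.3) and CRIM1 (21.98) followed, then TGFBI (6.87) and FBN1 (4.42). FBLN1, at 0.601 CPM per kb, and SPARC, at 0.127, were the lowest.

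**Figure D1:**
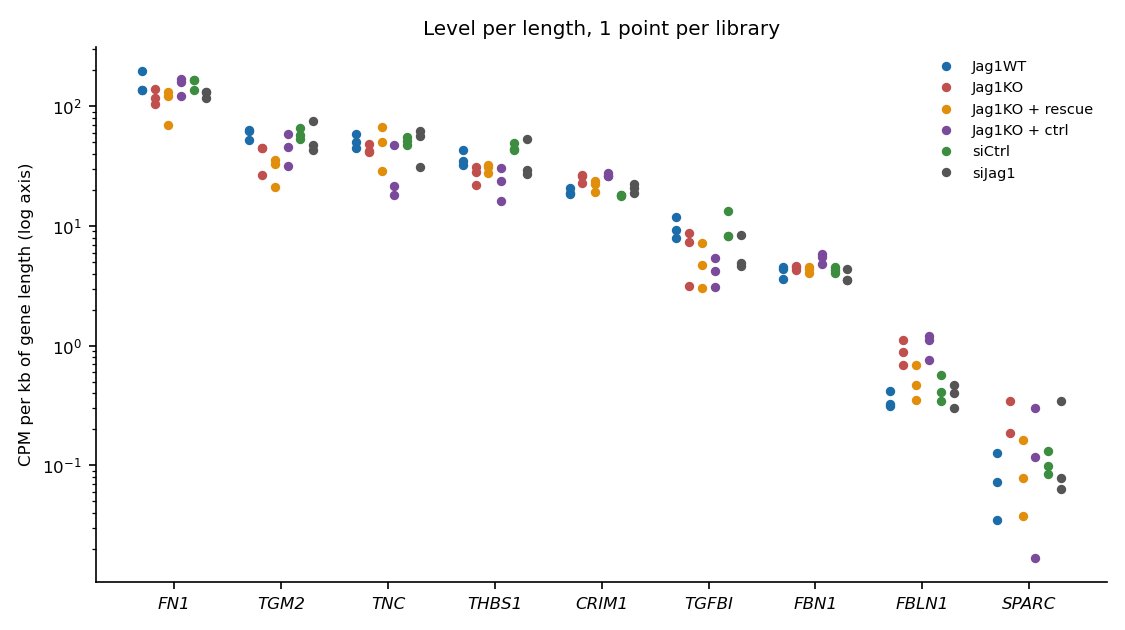
CPM per kb of gene length on a log axis for the 9 members, ordered by their mean, with 1 point per library and colours for the 6 groups. FN1 lies above the rest in every group, and FBLN1 and SPARC reach at most 1.21 CPM per kb, and the 1 library with no SPARC read is not drawn.

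Fibronectin (FN1, Entrez 2335, chr2:215360440-215436073 on the minus strand of hg38, GENCODE annotation) was counted with 9425 to 27665 reads per library. It had 1256, 1262 and 1804 CPM in Jag1WT and 964, 1072 and 1272 in Jag1KO. The highest Jag1KO library lay just above the lower pair of Jag1WT libraries, so the groups overlapped. FN1 had 642, 1122 and 1217 CPM in Jag1KO + rescue and 1472, 1117 and 1562 in Jag1KO + ctrl, which overlapped too, with the rescue lower on average (994 ± 308 against 1384 ± 235, SD, n = 3). In the siRNA pair the values were 1264, 1520.4 and 1517 CPM for siCtrl and 1214, 1088 and 1216 for siJag1, and each siCtrl library was above each siJag1 library. Such separation, in the direction of higher with more JAG1, was seen in 5.15% of all genes tested in that comparison. The log2 differences were 0.38 ± 0.185 (adjusted p = 0.615) for Jag1WT over Jag1KO, −0.48 ± 0.268 (0.243) for the rescue and 0.30 ± 0.123 (0.970) for siCtrl over siJag1. The sign in the rescue was thus opposite to that in the other comparisons. Tested directly, the difference between the first and the second was 0.89 (95% confidence interval 0.14 to 1.64, adjusted p = 0.161), and that between siRNA and rescue was 0.80 (0.13 to 1.46, adjusted p = 0.189).

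Thrombospondin 1 (THBS1, Entrez 7057, chr15:39581079-39599466, plus strand) binds CD36, CD47 and integrins and can activate latent TGFβ. It had 206, 189.7 and 253 CPM in Jag1WT and 129, 168 and 184 in Jag1KO, with no overlap between the groups, as in the higher direction in 7.24% of all genes tested there. The rescue had 191, 163 and 185 CPM and Jag1KO + ctrl 95.1, 181 and 141, where 1 Jag1KO + ctrl library lay within the range of the rescue. With siRNA the values were 258, 253 and 289.8 CPM in siCtrl and 162, 315 and 174 in siJag1, and siJag1 replicate 2, the library with the high growth-state level, was the highest of all 18. The log2 differences were 0.42 ± 0.167 (adjusted p = 0.491), 0.36 ± 0.228 (0.293) and 0.30 ± 0.249 (0.970), all positive and none past the test. Without siJag1 replicate 2 the siRNA value was 0.68 with an adjusted p of 0.0822. THBS1 was also higher in siCtrl than in Jag1WT, where JAG1 was not lowered (0.30 ± 0.120, unadjusted p = 0.0363, adjusted p over 0.99), with 253.5 CPM the lowest siCtrl value and 253.0 the highest Jag1WT value, as in the higher direction in 3.41% of all genes tested there.

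Tenascin C (TNC, Entrez 3371, chr9:115019575-115118207, minus strand) is an adhesion-modulating glycoprotein of wound and tumor stroma. The Jag1WT libraries had 469, 554 and 422 CPM and the Jag1KO libraries 388, 453 and 399, and these overlapped. In the rescue TNC had 267, 626 and 468 CPM, and in Jag1KO + ctrl 169, 201 and 441. Replicate 3 of Jag1KO + ctrl was above the lowest rescue library, and it was also the library with the low growth-state level of its group. In siCtrl the values were 444, 519 and 479 CPM and in siJag1 527, 289 and 579, with siJag1 replicate 2 far below the rest. Besides rescue replicate 1, the libraries with the lowest TNC were Jag1KO + ctrl replicates 1 and 2 and siJag1 replicate 2, and these 3 had the highest growth-state levels of all 18 libraries. The log2 differences were 0.21 ± 0.131 (adjusted p = 0.678), 0.74 ± 0.428 (0.259) and 0.06 ± 0.233 (0.990). Without Jag1KO + ctrl replicate 3 the rescue difference was 1.30 with an adjusted p of 0.0257, in a fit that called 3726 of 12850 genes. Over all fits without 1 library it ran from 0.42 to 1.30, with adjusted p up to 0.568. Without Jag1KO + ctrl replicate 3 TNC was also lower in Jag1KO + ctrl than in Jag1KO, by 1.17 (adjusted p = 0.0341, 310 of 12956 genes called). That comparison sets no difference in JAG1. The lone removal of that library left 2 libraries in Jag1KO + ctrl.

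**Figure D2:**
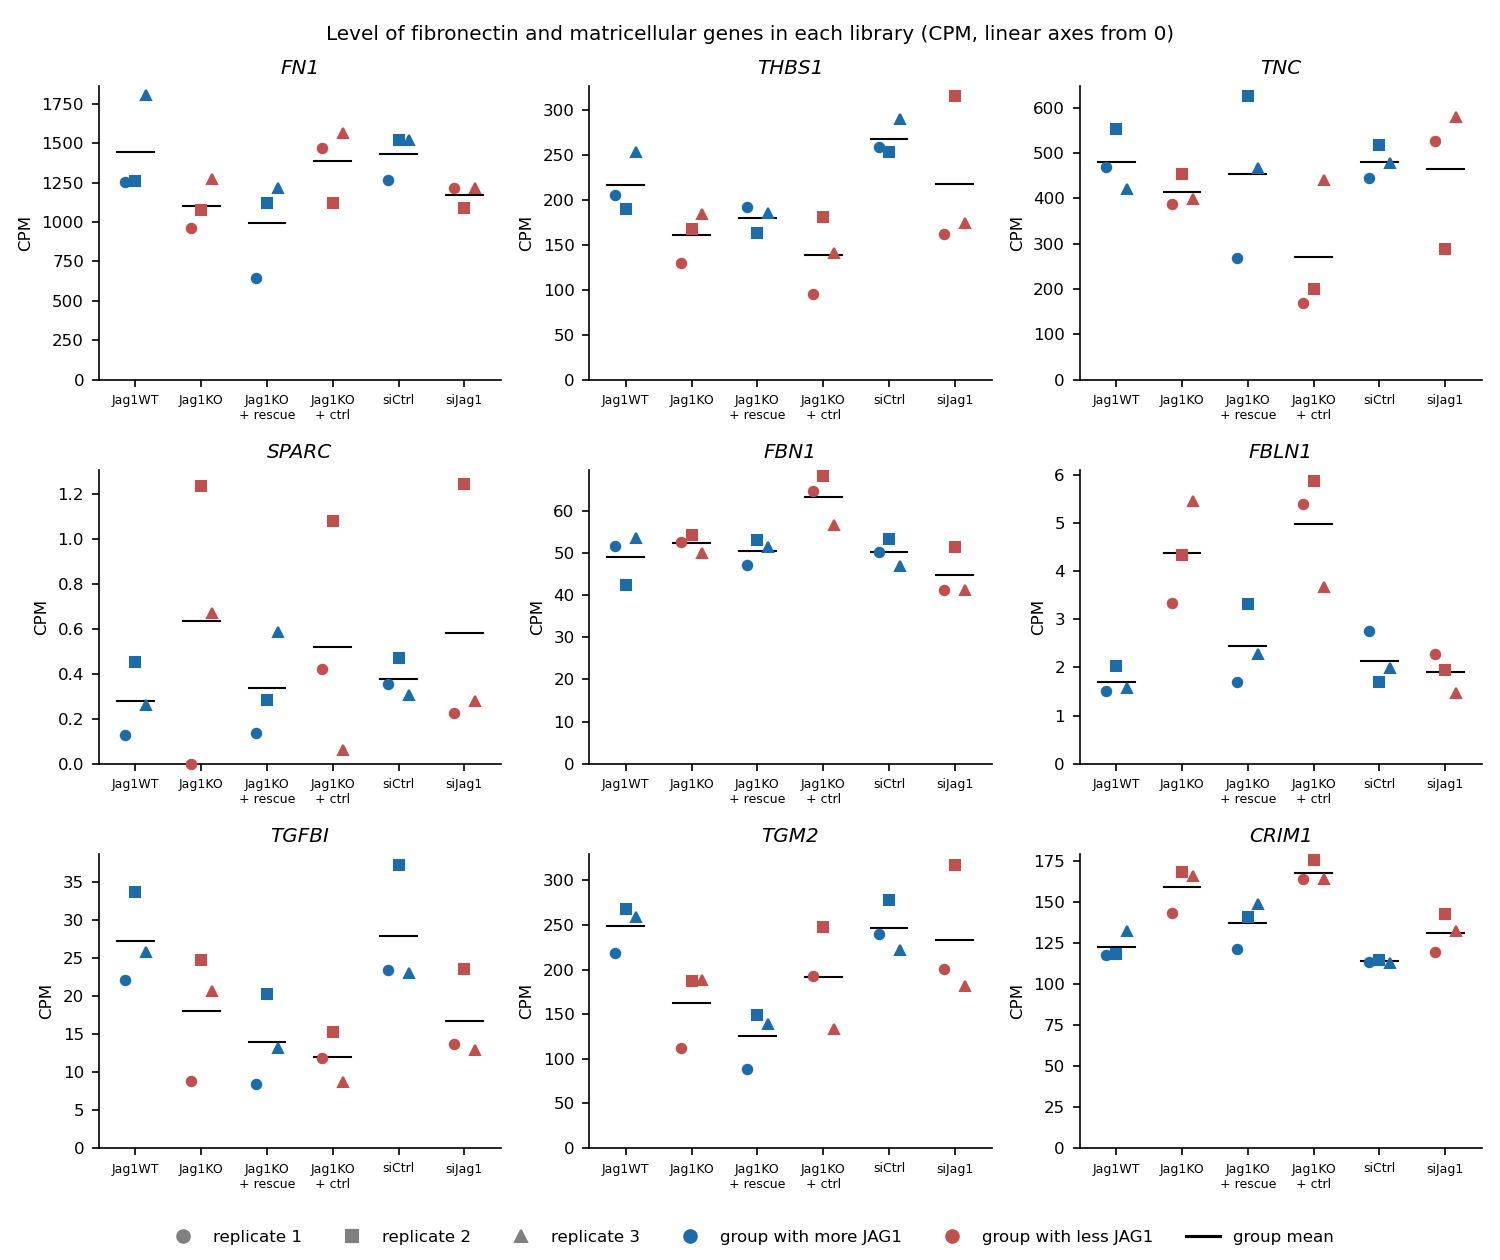
CPM of each member in each library (linear axes from 0; symbols mark the replicate number, blue the groups with more JAG1, red those with less, and black lines the group means). FBLN1 is higher in Jag1KO and Jag1KO + ctrl than in the other groups, CRIM1 is lower in each blue group than in the red group to its right, and the blue and red libraries of FN1, TNC and TGFBI overlap in Jag1WT against Jag1KO.

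TGFBI (Entrez 7045, chr5:136028988-136063818, plus strand) encodes a TGFβ-induced matrix protein that binds integrins and collagens. It had 22.1, 33.6 and 25.8 CPM in Jag1WT and 8.81, 24.7 and 20.6 in Jag1KO, which overlapped. The rescue (8.45, 20.3 and 13.2 CPM) and Jag1KO + ctrl (11.8, 15.3 and 8.66) overlapped as well. With siRNA TGFBI had 23.3, 37.2 and 23.1 CPM in siCtrl and 13.7, 23.5 and 12.9 in siJag1, so that siJag1 replicate 2 reached the range of siCtrl. Replicate 2 had the highest TGFBI in each of the 6 groups, and in each same-numbered pair siCtrl was above siJag1. The log2 differences were 0.59 ± 0.352 (adjusted p = 0.670), 0.23 ± 0.349 (0.664) and 0.74 ± 0.286 (0.970), all positive, and the siRNA value had an unadjusted p of 0.0333 with a 95% confidence interval of 0.08 to 1.40. Without siJag1 replicate 2, and with siCtrl replicate 2 kept, that value was 1.08 (adjusted p = 0.199). The intervals of the other comparisons ran from −0.22 to 1.40 and from −0.58 to 1.03, so that 0 lay within both.

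Transglutaminase 2 (TGM2, Entrez 7052, chr20:38127385-38166578, minus strand) cross-links matrix proteins, fibronectin among them, and also binds it as a co-receptor of integrins. In Jag1WT it had 219, 268 and 259 CPM and in Jag1KO 112, 187 and 188, with no overlap, as in the 7.24% given for THBS1. In the rescue it had 88.1, 149 and 139 CPM and in Jag1KO + ctrl 193, 248 and 133, where replicate 3 of the latter lay within the rescue range. In siCtrl it had 239.9, 278 and 222 CPM and in siJag1 200.3, 318 and 182, which overlapped, again with the highest value in siJag1 replicate 2. The log2 difference was 0.61 ± 0.204 in Jag1WT against Jag1KO (adjusted p = 0.398), −0.62 ± 0.273 in the rescue (0.169) and 0.08 ± 0.215 with siRNA (0.983). TGM2 was therefore higher with JAG1 in one and lower in the other of the comparisons made on the Jag1KO line, and neither passed the test. Without Jag1KO + ctrl replicate 3 the rescue value was −0.82 and was called (adjusted p = 0.0361), in a fit that called 3726 of 12850 genes. Over all fits without 1 library the rescue value ran from −0.82 to −0.38, with adjusted p up to 0.464. The difference between the knockout and rescue values was 1.25 on the log2 scale (95% confidence interval 0.43 to 2.08, unadjusted p = 0.00631, adjusted p = 0.0995), in a test that called 70 genes or 0.547% of 12804. DESeq2 gave 1.23 with an adjusted p of 0.0294, and called 917 of 12804 genes. Without Jag1KO + ctrl replicate 3 the difference was 1.46 (adjusted p = 0.0153), where 2371 of 12804 genes were called. Without both Jag1KO replicate 1 and Jag1KO + ctrl replicate 3 it was 1.25 (adjusted p = 0.0153), where 2283 were called. Over all fits without 1 library it ran from 1.01 to 1.46, with adjusted p up to 0.246. The gene body of TGM2 overlaps that of RPRD1B on the other strand, which had a mean of 54.3 CPM, and whether the counting used strand was not stated in the sources used here, so reads of shared stretches cannot be told apart.

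Fibrillin 1 (FBN1, Entrez 2200, chr15:48408313-48645721, minus strand), the backbone of microfibrils, varied least together with CRIM1. Its highest library had 1.66 times the CPM of its lowest. The values were 51.6, 42.4 and 53.5 CPM in Jag1WT, 52.7, 54.2 and 50.1 in Jag1KO, 47.2, 53.2 and 51.4 in the rescue, 64.7, 68.3 and 56.6 in Jag1KO + ctrl, 50.3, 53.3 and 46.9 in siCtrl and 41.3, 51.5 and 41.3 in siJag1. Jag1KO + ctrl stood above every library of the other 5 groups, and 6.05% of all genes tested were separated in that direction from Jag1KO. The log2 difference in the rescue was −0.33 ± 0.136 (adjusted p = 0.152) with no overlap between the groups, as was seen in the lower direction in 16% of all genes tested there, and the values were −0.09 ± 0.122 (adjusted p = 0.868) in Jag1WT against Jag1KO and 0.17 ± 0.130 (0.970) with siRNA. The siRNA and rescue values differed by 0.52 (95% confidence interval 0.13 to 0.90, adjusted p = 0.160, in a test that called 0.094% of all genes). Without Jag1KO + ctrl replicate 3 this difference was 0.59 with an adjusted p of 0.0465, where 1782 of 12761 genes were called. Without siJag1 replicate 2 as well it was 0.72 (adjusted p = 0.00570), where 3686 were called. Over all fits without 1 library it ran from 0.44 to 0.64, with adjusted p up to 0.341.

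Fibulin 1 (FBLN1, Entrez 2192, chr22:45502238-45601135, plus strand) binds fibronectin, fibrillin microfibrils and basement membrane proteins. It was expressed at a low level, with 21 to 98 reads per library. It had 1.51, 2.03 and 1.57 CPM in Jag1WT and 3.33, 4.33 and 5.45 in Jag1KO, and every Jag1KO library was above every Jag1WT library. Likewise the rescue had 1.70, 3.32 and 2.29 CPM and Jag1KO + ctrl 5.4, 5.87 and 3.67, with no overlap. With siRNA the values were 2.76, 1.69 and 1.98 CPM in siCtrl and 2.27, 1.95 and 1.47 in siJag1, and these overlapped. The log2 difference was −1.36 ± 0.282 in Jag1WT against Jag1KO (95% confidence interval −2.005 to −0.71, unadjusted p = 0.00130, adjusted p = 0.102) and −1.03 ± 0.333 in the rescue (−1.80 to −0.26, adjusted p = 0.113), and it was 0.18 ± 0.293 with siRNA (−0.50 to 0.86, adjusted p = 0.979). Separation of the groups in the lower direction was seen in 6.58% of all genes in the first comparison and in 16% in the second.

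FBLN1 was called under some other fits. In Jag1WT against Jag1KO it was called in 4 of 12: by DESeq2 (−1.36, adjusted p = 0.0192), with all 18 libraries in 1 fit (−1.36, adjusted p = 0.0380), with the replicate number as a block and without Jag1KO replicate 1 (−1.53, adjusted p = 0.0105). These fits called 235, 147, 282 and 952 of 12879 genes. Without 1 library its adjusted p ran up to 0.461. In the rescue FBLN1 was called in 2 of 12, with all 18 libraries in 1 fit (−1.06, adjusted p = 0.0181) and without Jag1KO + ctrl replicate 3 (−1.21, adjusted p = 0.0281), and DESeq2 did not call it. These 2 fits called 2144 and 3726 of 12850 genes. Without 1 library its adjusted p ran up to 0.369. In the siRNA comparison no alternative called it. The difference between the Jag1WT against Jag1KO value and the siRNA value was −1.53 (95% confidence interval −2.39 to −0.67, in a test that called 0.11% of all genes, unadjusted p = 0.00217, adjusted p = 0.549). That between siRNA and rescue was 1.23 (0.26 to 2.20, adjusted p = 0.176). Without both libraries that stood apart it was 1.43 (adjusted p = 0.0407), where 3686 of 12761 genes were called. Within Jag1KO the library with the low growth-state level had the lowest FBLN1 (3.33 CPM, 51 reads), within Jag1KO + ctrl likewise (3.67 CPM). The highest Jag1WT library had 2.03 CPM and the highest rescue library 3.32 CPM (47 reads), nearly the same as that Jag1KO library. The part of growth state in FBLN1 was not tested. In siJag1 the library with the high growth-state level had 1.95 CPM, between the other siJag1 values.

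**Figure D3:**
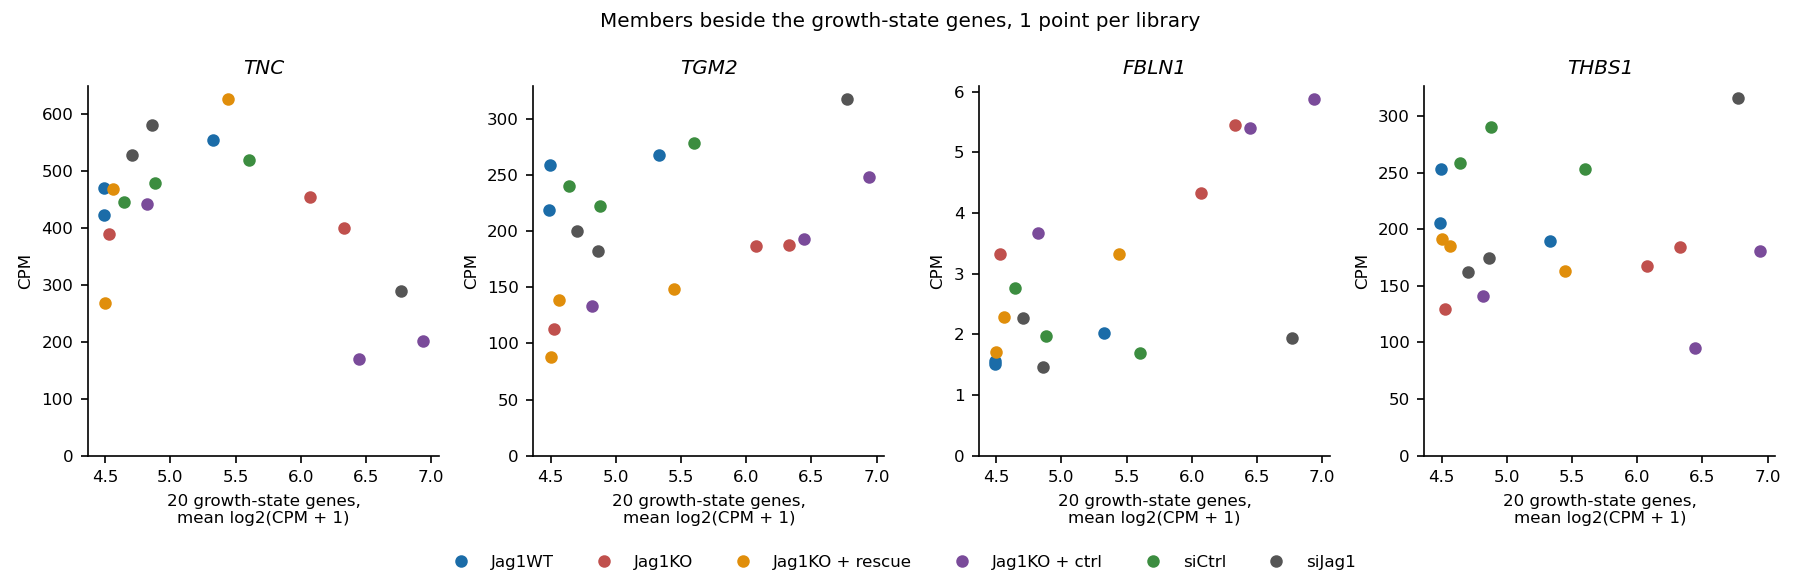
CPM of TNC, TGM2, FBLN1 and THBS1 (y axes from 0) against the mean log2(CPM + 1) of 20 growth-state genes (x axis, which does not start at 0), 1 point per library, coloured by group. TNC is low in the 3 libraries with the highest growth-state level, FBLN1 is above 4 CPM only in libraries above 6 on the x axis, and siJag1 replicate 2 at 6.77 has low FBLN1 and the highest TGM2 and THBS1.

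CRIM1 (Entrez 51232, chr2:36355778-36551135, plus strand) encodes a transmembrane protein with cysteine-rich repeats that binds BMPs. It had 118, 118 and 132 CPM in Jag1WT and 144, 169 and 166 in Jag1KO. The rescue had 121, 141 and 149 CPM and Jag1KO + ctrl 164, 176 and 164. In siCtrl it had 114, 115 and 113 CPM and in siJag1 119.6, 143 and 132. In each comparison every library with more JAG1 was below every library with less, a pattern shared by 0.247% of the 12553 genes tested in all 3 comparisons, or 31 genes. With siRNA alone 5.32% of the genes tested were separated in that direction. The differences were small: −0.38 ± 0.110 in Jag1WT against Jag1KO (95% confidence interval −0.64 to −0.13, unadjusted p = 0.00850, adjusted p = 0.307), −0.30 ± 0.132 in the rescue (adjusted p = 0.167) and −0.20 ± 0.0999 with siRNA (adjusted p = 0.970), none past the test. The smallest gaps between groups were between 149 and 164 CPM in the rescue and between 115 and 119.6 CPM with siRNA. Differences between the comparisons were between −0.18 and 0.12 on the log2 scale. siCtrl was also below Jag1WT without overlap (−0.12 ± 0.0814, unadjusted p = 0.177), as in 2.89% of all genes tested there. Without Jag1KO replicate 1 the first difference was −0.46 with an adjusted p of 0.0257, still under the 1.5-fold threshold. The gene body of CRIM1 overlaps that of FEZ2 on the other strand (mean 80.5 CPM), with the same limit on strand as for TGM2.

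SPARC (Entrez 6678, chr5:151661096-151686975, minus strand), a collagen-binding matricellular protein that fibroblasts make in quantity, was close to absent. It was counted with 0 to 23 reads per library and 124 reads in all 18. A count of 0, in Jag1KO replicate 1, allows up to 0.196 CPM at 3 reads, counting error only. In Jag1WT it had 0.126, 0.451 and 0.261 CPM, and in Jag1KO 0, 1.24 and 0.669. In the other groups the values lay between 0.0602 and 1.24 CPM. The 3 libraries above 1 CPM were replicate 2 of Jag1KO, of Jag1KO + ctrl and of siJag1, and the next highest was Jag1KO replicate 3 at 0.669. With no filter on low values the log2 differences were −1.14, −0.57 and −0.65, with adjusted p between 0.682 and 0.891, and a difference was not detectable at this depth.

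**Figure D4:**
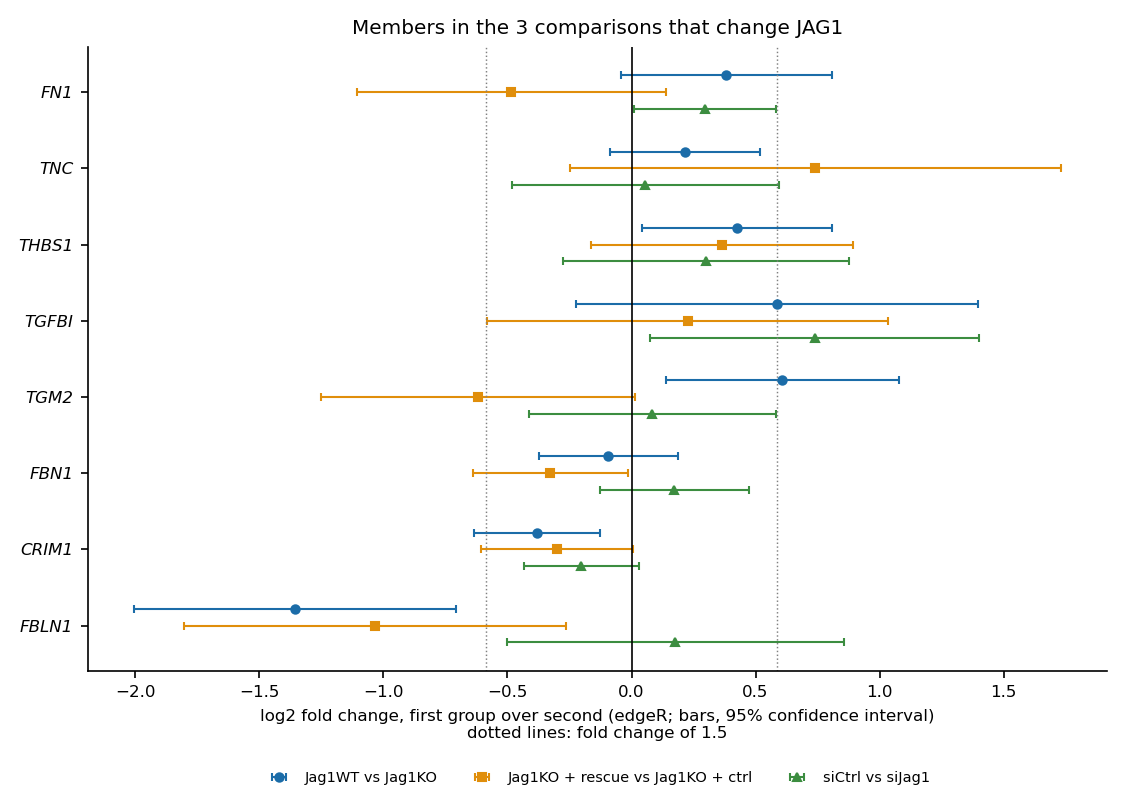
Log2 difference (x axis, first group over second) of the 8 members tested in the 3 comparisons that change JAG1, with 95% confidence intervals from the edgeR fit, and dotted lines mark a fold change of 1.5. The FBLN1 interval includes 0 with siRNA and lies left of it in the other comparisons, TGM2 and FN1 change side between Jag1WT against Jag1KO and the rescue, and the estimates of CRIM1 lie left of 0 in all 3.

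Over the 8 members tested, 5 log2 differences were positive and 3 negative in Jag1WT against Jag1KO, with a median of 0.30. In the rescue 3 were positive and 5 negative, with a median of −0.31, and in the siRNA comparison 7 were positive and 1 negative, with a median of 0.17. The medians of all genes tested were −0.0089, −0.0024 and −0.0073. The groups did not overlap for 4 members in Jag1WT against Jag1KO (THBS1 and TGM2 higher, FBLN1 and CRIM1 lower), for 3 in the rescue (FBN1, FBLN1 and CRIM1, all lower) and for 2 with siRNA (FN1 higher and CRIM1 lower). In all genes tested this was seen in 13.8%, 32.5% and 10.5%.

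In the comparisons where JAG1 was not changed on purpose, none of the 8 members was called either, as in 0% of all genes. Jag1KO + ctrl shares its libraries with the rescue comparison and Jag1KO with the knockout comparison, and siCtrl and Jag1WT are likewise shared. In Jag1KO + ctrl against Jag1KO the log2 differences of the members ran from −0.63 (TNC) to 0.31 (FN1), with 753 genes at an unadjusted p below 0.05 and 13 genes called by DESeq2. In siCtrl against Jag1WT they ran from −0.12 (CRIM1) to 0.33 (FBLN1), with 176 such genes and 0 called by DESeq2. The difference of FBLN1 in Jag1KO + ctrl against Jag1KO was 0.18 ± 0.293, and that of TGM2 0.22 ± 0.276. In the order of their group means, FBLN1 was highest in Jag1KO + ctrl, then Jag1KO, and these overlapped, while the highest library of the next group, the rescue, had 3.32 CPM against 3.33 for the lowest of Jag1KO. CRIM1 was highest in Jag1KO + ctrl and lowest in siCtrl, and neighbours in its order overlapped except Jag1WT and siCtrl. For FN1, THBS1, TNC, TGFBI and TGM2 every group overlapped the next in that order.

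Among 16 other matricellular genes in the files (thrombospondins, tenascins, CCN proteins and others), 6 were tested and none was called in any comparison. The most abundant was CCN1, with a median of 660.4 CPM over the libraries. CCN2, a matricellular protein and common TGFβ target, had log2 differences of −1.21 (adjusted p = 0.242), −0.28 (0.591) and −0.82 (0.970). Of 5 other transglutaminase genes in the files, TGM1 and F13A1 were tested, F13A1 in the knockout and siRNA comparisons, and neither was called.

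Of 15 genes of receptors for fibronectin and matricellular proteins, 10 were tested, and in Jag1WT against Jag1KO 2 were called, both higher in Jag1WT. ITGA5, which pairs with integrin β1 as the main fibronectin receptor, lay between 378 and 475 CPM in Jag1WT and between 221 and 253 in Jag1KO (0.87 ± 0.122, adjusted p = 0.0234). ITGB3, which pairs with integrin αV, lay between 11.6 and 15.8 CPM in Jag1WT and between 5.02 and 6.57 in Jag1KO (1.22 ± 0.201, adjusted p = 0.0451). Both calls were lost when any 1 library other than Jag1KO replicate 1 was left out, with adjusted p of 0.0631 to 0.161 for ITGA5 and 0.127 to 0.216 for ITGB3. Those fits called only 8 to 22 genes of all tested, against 92 in the main test. Both calls held in the 6 alternatives that kept all libraries. In the rescue their differences were 0.23 (adjusted p = 0.492) and −0.32 (0.528), and with siRNA 0.51 and 0.75 (both 0.970), so that 0 of 10 were called there. The difference between knockout and rescue was 1.56 for ITGB3 (adjusted p = 0.0812) and 0.66 for ITGA5 (0.175). Integrin β1 itself (ITGB1) was at a median of 1425 CPM, with −0.04 (adjusted p = 0.950) in Jag1WT against Jag1KO.

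Of 17 other microfibril, elastic fibre and fibulin genes in the files, 11 were tested in Jag1WT against Jag1KO and with siRNA and 10 in the rescue. LTBP1, which holds latent TGFβ on microfibrils and fibronectin, was called in Jag1WT against Jag1KO (0.71 ± 0.119, adjusted p = 0.0457), with 295 to 359 CPM against 182 to 216. The call was lost without any 1 library other than Jag1KO replicate 1 (adjusted p 0.0986 to 0.232) and with all 18 libraries in 1 fit (0.125). LTBP3, a relative of it, was called with siRNA (1.35 ± 0.129, adjusted p = 0.0484), with 29.6 to 34.0 CPM in siCtrl and 11.6 to 13.4 in siJag1, and its call was lost without any 1 library other than siJag1 replicate 2 (adjusted p 0.250 to 0.501) and in limma (0.0606). In the knockout comparison LTBP3 had 0.94 (adjusted p = 0.172) and in the rescue −0.32 (0.281). None of these genes was called in the rescue.

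Of the 12 TGFβ ligands, receptors and common target genes, TGFBR1, the type I receptor, was called in Jag1WT against Jag1KO (0.94 ± 0.141, adjusted p = 0.0322), with 119 to 132 CPM in Jag1WT and 54.5 to 79.1 in Jag1KO. That call too was lost without any 1 library other than Jag1KO replicate 1 (adjusted p 0.0972 to 0.192), and held in the 6 alternatives that kept all libraries. In the rescue it had 93.5 to 113 CPM against 56.4 to 76.4, also without overlap (0.66 ± 0.163, adjusted p = 0.104), and with siRNA 0.38 (0.970). Of 16 BMP ligands and secreted BMP antagonists, 11 were tested and FST, the gene of the activin and BMP antagonist follistatin, was called in Jag1WT against Jag1KO, lower in Jag1WT (−1.94 ± 0.186, adjusted p = 0.00596). It lay between 12.1 and 14.4 CPM in Jag1WT and between 41.2 and 62.1 in Jag1KO. Leaving out Jag1WT replicate 1 or 3 ended the call (adjusted p of 0.0616 and 0.0725). In the rescue FST had 0.42 (adjusted p = 0.355) and with siRNA −0.64 (0.970).

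The genes whose levels moved most like each member over the 18 libraries were taken as the 2 with the smallest root mean square difference in centred log2(CPM + 1), among 12757 genes. They were TFPI and ARHGAP27P1 for FN1 (0.146 and 0.147, against a spread of FN1 itself of 0.325 as SD), PLPP4 and CACNA2D1 for THBS1 (0.231 and 0.274, SD 0.425), and ADTRP and ERICH2 for TNC (0.198 and 0.204, SD 0.517). For TGM2 they were NAV1 and FHOD3 (0.138 and 0.139, SD 0.485), for CRIM1 PDLIM5 and PERP (0.0912 and 0.0923, SD 0.221), and for FBN1 ATAT1 and IP6K2 (0.103 and 0.107, SD 0.188). For FBLN1 they were ARHGEF28 and RTN2 (0.254 and 0.260, SD 0.5001) and for TGFBI NALCN and CD82 (0.281 and 0.299, SD 0.617). No member was among the nearest of another.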

How the data were processed

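The members and gene lists were chosen with earlier results of these data known. Per the labels, RNA from 18 cultures (3 biological replicates in each of 6 groups) was made into TruSeq Stranded mRNA libraries, and the submitters' processing notes name featureCounts, edgeR 3.28.0, R 3.6.1 and MultiQC 1.5. The aligner and the strand setting of the counting were not given in the sources used here. The authors counted uniquely mapped reads per gene on hg38, and these deposited counts were whole numbers that had not been normalized. The deposited CPM signal was checked to be these counts divided by the TMM-scaled library size of the authors. The deposited RPKM were checked to be that CPM divided by 1 length per gene and gave only gene lengths. No label fitted 3 of the RPKM columns, which were left unused. The 292 rows with no symbol, at most 0.0442% of a library's counts, were left out of tests and library sizes.

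Totals of 10330581 to 18327890 counts per library set the precision, and limits at 3 counts cover counting error only. Within groups, replicate pairs differed beyond sampling noise in 18 of 18 pairs (chi-square per degree of freedom 7.34 to 106). The quasi-likelihood test of edgeR 4.0.16 (R 4.3.3) was run on counts with TMM for genes above 1 CPM in at least 3 of 6 libraries, with Benjamini-Hochberg adjustment over all genes tested. The thresholds and filter are those of the authors, whose test, ROTS, was not installed. Differences between comparisons were interaction contrasts over 12 libraries (above 1 CPM in at least 6). SE is the log2 difference divided by the square root of F, with 95% intervals from its t quantile. Positive differences are higher in the first group named, which in the 3 comparisons that change JAG1 is the one with more JAG1. A positive difference between comparisons means a higher value in the first comparison named.

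Alternatives were DESeq2 1.42.0, limma 3.58.1 with a trend on log2(CPM + 1) (pseudocount 1), no filter, upper-quartile scaling, the replicate number as a block, leaving out each library, all 18 libraries in 1 fit, and no fold threshold. Leaving out together the libraries that stand apart in growth-state genes was added after seeing the data. Same-numbered libraries deviated together in siCtrl and siJag1 (correlations across genes of 0.543, 0.522 and 0.264) and in siCtrl and Jag1WT (0.595, 0.713 and 0.210), and in the other comparisons at least 1 correlation was below 0.1. Named genes were the members, JAG1, genes of the lists called in a comparison (at most 3 per list and comparison), and the 2 nearest genes of each member above 1 CPM in at least 9 of 18 libraries. Other genes named (CCN1, CCN2, TGM1, F13A1 and ITGB1) were chosen after their values were seen. On simulated counts, drawn independently for each gene and with 200 changed genes per comparison, the test called 9 to 14 unchanged genes. Coordinates are from GENCODE 44 and promoters from RefSeq, both on hg38 (GRCh38).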

Additional observations from a re-analysis of the deposited data

Results flagged for a closer look

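The difference of LTBP3 between the siRNA and the rescue comparison passed the test, at 1.69 on the log2 scale (SE 0.219, adjusted p = 0.0155 in edgeR, 12 libraries), where 12 genes of 12761 were called. LTBP3 was higher in every siCtrl than in every siJag1 library, and in the rescue it lay between 13.7 and 18.7 CPM against 18.9 to 24.2 in Jag1KO + ctrl. The signs were thus opposite, but the rescue difference alone was not called. The rescue groups were barely separated, and 16% of all genes tested there were separated in that direction. The difference of FST between the knockout and the rescue comparison was −2.34 (SE 0.385, adjusted p = 0.0276), where 70 genes of 12804 were called. FST was lower in every Jag1WT than in every Jag1KO library, while in the rescue it lay between 43.8 and 60.3 CPM against 28.7 to 60.2 in Jag1KO + ctrl, which overlapped. Jag1KO + ctrl replicate 3, which stood apart in growth-state genes, is among the libraries of both tests. Without it and the other library that stood apart in each test the values were 1.69 (adjusted p = 0.00140) and −2.90 (adjusted p = 0.000259). Those fits called 3686 of 12761 and 2283 of 12804 genes. The LTBP3 call was lost without any 1 siCtrl or siJag1 library (adjusted p 0.0546 to 0.0708), and the FST call in 9 of 12 fits without 1 library (adjusted p 0.0554 to 0.117), all but those without Jag1KO replicate 1, Jag1KO + rescue replicate 1 or Jag1KO + ctrl replicate 3. Neither gene is among the 9 members, and no member's difference between comparisons passed the test.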

How the results depend on the processing

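The count of members called was 0 in each comparison and each difference between comparisons, and it moved as follows. In Jag1WT against Jag1KO it was 1 with DESeq2 and with all 18 libraries in 1 fit (FBLN1 in both), 2 with the replicate block (TGM2 and FBLN1) and 0 to 1 over the fits leaving out a library. In the rescue it was 1 with all 18 libraries (FBLN1, with 2144 of 12850 genes called) and 0 to 3 leaving out a library. The 3 were TGM2, FBLN1 and TNC without Jag1KO + ctrl replicate 3, with 3726 of 12850 genes called. In Jag1KO + ctrl against Jag1KO the count of members was 0 to 1 leaving out a library (TNC). It was 2 without both libraries that stand apart (TGFBI and TNC, with 1583 of 12956 genes called). For the difference between knockout and rescue it was 1 with DESeq2 (917 of 12804 genes called) and 0 to 1 leaving out a library. It was 1 without both libraries that stand apart (2283 genes called), and TGM2 was the member each time. For the difference between siRNA and rescue it was 0 to 1 leaving out a library (FBN1, with 1782 of 12761 genes called). Without both libraries that stand apart it was 4 (FBN1, TGM2, FBLN1 and TNC, with 3686 genes called). It stayed 0 in siCtrl against siJag1, in siCtrl against Jag1WT and in the difference between knockout and siRNA under every alternative run.

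The replicate block changed no member's call in siCtrl against siJag1 or in siCtrl against Jag1WT. In Jag1WT and Jag1KO, where the block called TGM2 and FBLN1, the correlations were 0.632, 0.667 and −0.0137. Replicates 1 and 2 thus deviated together there at least as much as in the siRNA pair, and replicate 3 did not. The correlations were −0.207, 0.345 and 0.242 in the rescue, and −0.356, 0.279 and −0.610 in Jag1KO + ctrl and Jag1KO. The cause was not tested where a call changed. Signs turned for these differences when 1 library was left out, none of which had passed the test. In the comparisons that change JAG1, FBN1 in Jag1WT against Jag1KO ran from −0.17 to 0.00044, TGFBI in the rescue from −0.16 to 0.49, and with siRNA TGM2 from −0.0677 to 0.38, FBLN1 from −0.0560 to 0.33 and TNC from −0.19 to 0.25. In Jag1KO + ctrl against Jag1KO CRIM1 ran from −0.00678 to 0.11 and TGM2 from −0.00765 to 0.44. In siCtrl against Jag1WT FBN1 ran from −0.0743 to 0.0921, FN1 from −0.11 to 0.19, TGM2 from −0.12 to 0.0506, TGFBI from −0.24 to 0.21 and TNC from −0.0926 to 0.10, and with limma FN1 was 0.0093 and TNC 0.0030. Of the differences between comparisons, knockout against rescue ran from −0.16 to 0.30 for THBS1 and from −0.14 to 0.0013 for CRIM1, knockout against siRNA from −0.26 to 0.31 for THBS1, −0.12 to 0.21 for FN1, −0.49 to 0.15 for TGFBI and −0.0347 to 0.40 for TNC, and siRNA against rescue from −0.28 to 0.34 for THBS1. Without both libraries that stand apart the THBS1 values were −0.0573, −0.39 and 0.33. Of 312 member values under alternatives that keep all libraries, 304 kept sign and call, 6 became called and 2 turned sign, and of 560 with libraries left out, 506 kept both, 14 became called and 40 turned sign. The number of genes called overall moved further: in Jag1WT against Jag1KO from 92 to 952 without Jag1KO replicate 1 and to between 8 and 22 without any other library, to 235 with DESeq2 and to 282 with the replicate block, in the siRNA comparison from 2 to 24 with DESeq2, and in the rescue from 1 to 1583 with DESeq2, to 3726 without Jag1KO + ctrl replicate 3 and to 2144 with all 18 libraries in 1 fit. Of the other genes named as called, FST lost its call in Jag1WT against Jag1KO in 2 of 6 fits without 1 library, and ITGA5, ITGB3, LTBP1, MCM2, TGFBR1 and LTBP3 in 5 of 6 each. With 21 to 98 reads per library FBLN1, and with 0 to 23 SPARC, were limited by depth.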
